A study of Homo sapiens with 18 samples.

Results

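Messenger RNA levels of 45 genes that make and release exosomes were compared in human cancer cells with and without induction of a short hairpin RNA against MUC1. The genes were taken by symbol from a list that covers the ESCRT complexes, the syndecan, syntenin and ALIX route, lipid enzymes and raft proteins, small GTPases of vesicle traffic, and SNAREs. All 45 were present in each of the 3 deposited tables, which listed 19881 genes in COLO 201, 19977 in H1975 and 25673 in RKO.

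Of the 3 human lines, H1975 comes from a lung cancer, and COLO 201 and RKO come from colon cancers. Every culture carried the same doxycycline-inducible construct, tet-MUC1shRNA, with puromycin resistance, in the treated and the untreated arm alike. Cells received 500 ng/ml doxycycline, which turns the hairpin on, or 0.1% DMSO as vehicle, and cultures were grown in medium with 10% serum. Each table had 3 columns for each arm, called doxycycline columns and vehicle columns 1 to 3 here, and no culture with a control hairpin was used, so what the hairpin did and what doxycycline did by itself cannot be told apart. In RKO the untreated columns are headed DOX without a sign, and their reading as vehicle rests on the protocol, which names no other arm. The labels say that cells were cultured in triplicate, and the p-values measure the spread between these columns only.

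Exosomes are small vesicles that form as inward buds of late endosomes and leave the cell when such a multivesicular body fuses with the plasma membrane. Buds can be made by the ESCRT machinery, in which ESCRT-0, ESCRT-I and ESCRT-II gather ubiquitinated cargo, ESCRT-III filaments pinch the neck and the ATPase VPS4 takes the filaments apart. Other routes use syntenin, which joins the tails of syndecans to ALIX and ESCRT-III, or the lipid ceramide, or raft proteins. RAB and RAL GTPases move and dock the compartments, and SNARE proteins fuse the membranes.

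Values are TPM, a length-corrected share of the transcripts, in which the values of a column add up to 1000000, so read depth is unknown. MUC1 was checked first. MUC1 had 0.108, 0.105 and 0.204 TPM in the doxycycline columns of RKO, against 15.2, 1.24 and 1.03 TPM in its vehicle columns. In COLO 201, MUC1 had 2.03, 1.78 and 1.53 TPM with doxycycline, against 13.2, 15.0 and 13.6 TPM with vehicle. MUC1 had 7.05, 9.56 and 7.44 TPM in the doxycycline columns of H1975, against 101, 86.2 and 105 TPM in its vehicle columns. The arms were apart in every line. As a share of the vehicle mean, the doxycycline mean was 8.22% in H1975, 12.8% in COLO 201 and 2.38% in RKO. The exact two-sided permutation p was 0.1 in each line, the smallest that 3 columns against 3 allow. In RKO the vehicle mean rested on vehicle column 1, and without that column the doxycycline mean was 12.2% of the vehicle mean.

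Vehicle column 1 of RKO stood apart. Its 10 fibroblast and endothelial markers summed to 239 TPM, led by COL1A2, THY1, COL1A1 and COL3A1, against at most 0.0199 TPM in each of the other 5 RKO columns. The endothelial markers PECAM1, VWF and CDH5 were at most 0.0226 TPM in this column, and PDGFRB was at 0.0157 TPM. Its 8 mesenchymal markers summed to 1533 TPM, against 98.6 to 141 TPM in the doxycycline columns and 278 and 297 TPM in the other vehicle columns. Of these, AXL (94.1 TPM) and ZEB1 (21.5 TPM) were lower than in the other vehicle columns (133 and 115 TPM, and 31.4 and 25.3 TPM). RKO results are therefore given with and without this column. Of 7 colon epithelial markers only CDX2 averaged at least 1 TPM in RKO, and VIL1, KRT20 and GPA33 were at 0. In COLO 201, 5 of the 7 averaged at least 1 TPM, and in H1975, 3 of 6 lung epithelial markers did. In COLO 201 the 7 colon markers summed to 140.0 to 143 TPM with doxycycline and 199 to 203 TPM with vehicle, and its 8 mesenchymal markers summed to 1248 to 1374 TPM with doxycycline and 1145 to 1212 TPM with vehicle. The colon markers did not move together. VIL1, LGALS4 and GPA33 were lower with doxycycline in every column. KRT20, at 18.9 to 21.1 TPM with doxycycline and 13.4 to 14.8 TPM with vehicle, was higher in every column, as were CDX2 and CDH17. Among the mesenchymal markers FN1, which encodes fibronectin, was at 156 to 172 TPM with doxycycline and 22.9 to 25.2 TPM with vehicle, while VIM was at most 0.103 TPM. CAV1 went the other way, at 10.8 to 12.2 TPM with doxycycline and 31.7 to 34.6 TPM with vehicle. CAV2 and AXL were also lower with doxycycline in every column. The 8 leukocyte and erythroid markers of COLO 201 summed to 693 to 742 TPM with doxycycline and 1283 to 1291 TPM with vehicle, nearly all of it LYZ and CD68, with MS4A1 and HBB at 0 and PTPRC at most 0.00534 TPM. In COLO 201 mitochondrial genes took 16.9% to 18.6% of TPM with doxycycline and 20.1% to 23.0% with vehicle. In H1975 they took 16.1% to 17.4% with doxycycline and 17.4% to 22.5% with vehicle, and its lung markers summed to 19.9 to 24.1 TPM with doxycycline and 30.8 to 35.6 TPM with vehicle. CD68, a lysosomal membrane protein, had every doxycycline column above every vehicle column in all 3 lines, with PTPRC at most 0.0672 TPM in any column. The share of TPM in small noncoding RNA genes of RKO was 71.1% to 79.0% in the doxycycline columns and 68.0% to 72.1% in the vehicle columns. This share was at most 0.00286% in COLO 201 and H1975. Mitochondrial genes took 0% of TPM in every RKO column, so RKO values had a different make-up from those of the other lines. In H1975 the fibroblast and endothelial markers summed to 17.2 to 20.9 TPM with doxycycline and 45.2 to 47.3 TPM with vehicle, with COL1A1 and COL1A2 as the main part and DCN and THY1 at 0. The part of these marker genes in the results was not tested. A fit with small noncoding and mitochondrial genes removed is described at the end.

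Each gene with a mean of at least 1 TPM was tested within its line with limma on log2(TPM + 1), and a gene was called higher or lower with doxycycline where the Benjamini-Hochberg adjusted p over all genes of the table was under 0.05. A log2 change on this scale understates the change of genes at low TPM. Errors are SE for log2 changes and SD over the 3 columns of an arm for TPM, adjusted p-values are from limma, and arms are called apart where every doxycycline column lay on the same side of every vehicle column. In COLO 201, 19 of 42 tested exosome genes were higher with doxycycline and 4 were lower, where 45.9% and 15.0% of all 11566 tested genes were called. In H1975, 14 of 43 were higher and 4 lower, against 23.9% and 14.6% of 12359 genes. In RKO, 1 of 43 was higher and 3 were lower, against 2.09% and 16.1% of 10551 genes. The median log2 change of the exosome genes was 0.091 in COLO 201, 0.11 in H1975 and -0.092 in RKO, and that of all tested genes was 0.12 in COLO 201, 0.059 in H1975 and -0.26 in RKO. The shares called higher were thus near the background in COLO 201 and RKO and somewhat above it in H1975, a gap that was not tested. Without vehicle column 1 the H1975 count of higher genes was 7, and without doxycycline column 1 it was 9, with no share of all genes given for these fits.

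The median of all genes moved by over 0.1 on the log2 scale in COLO 201 and RKO, so each column was also rescaled by its median ratio to the geometric mean of the columns. The split of calls then became 11 higher and 13 lower in COLO 201, 12 higher and 8 lower in H1975, and 8 higher and 4 lower in RKO, against 28.5% and 28.7%, 18.5% and 19.9%, and 13.7% and 14.2% of all genes. Called lower only after rescaling were STAM, TSG101, VPS36, VPS4B, VTA1, PDCD6IP, RAB11A, RALB and YKT6 in COLO 201. In H1975 these were SNF8, HPSE, STEAP3 and YKT6, and in RKO CHMP6. Called higher only after rescaling were STAM, CHMP4A, CHMP4B, FLOT1, RAB7A, RAB9A and STX6, all in RKO. Below, calls are as deposited unless another fit is named. Calls that were made on both scales were 11 higher and 4 lower in COLO 201, 12 higher and 4 lower in H1975, and 1 higher and 3 lower in RKO. The shares of all genes called on both scales were 28.5% higher and 15.1% lower in COLO 201, 18.5% and 14.5% in H1975, and 2.07% and 11.7% in RKO. Of the 45 genes, 16 were called in no line as deposited, 14 in 1 line, 14 in 2 lines and 1, CHMP4C, in all 3. As the RNA is from bulk cultures, a change in the number of cells that express a gene and a change in its RNA per cell cannot be told apart.

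**Figure D1:**
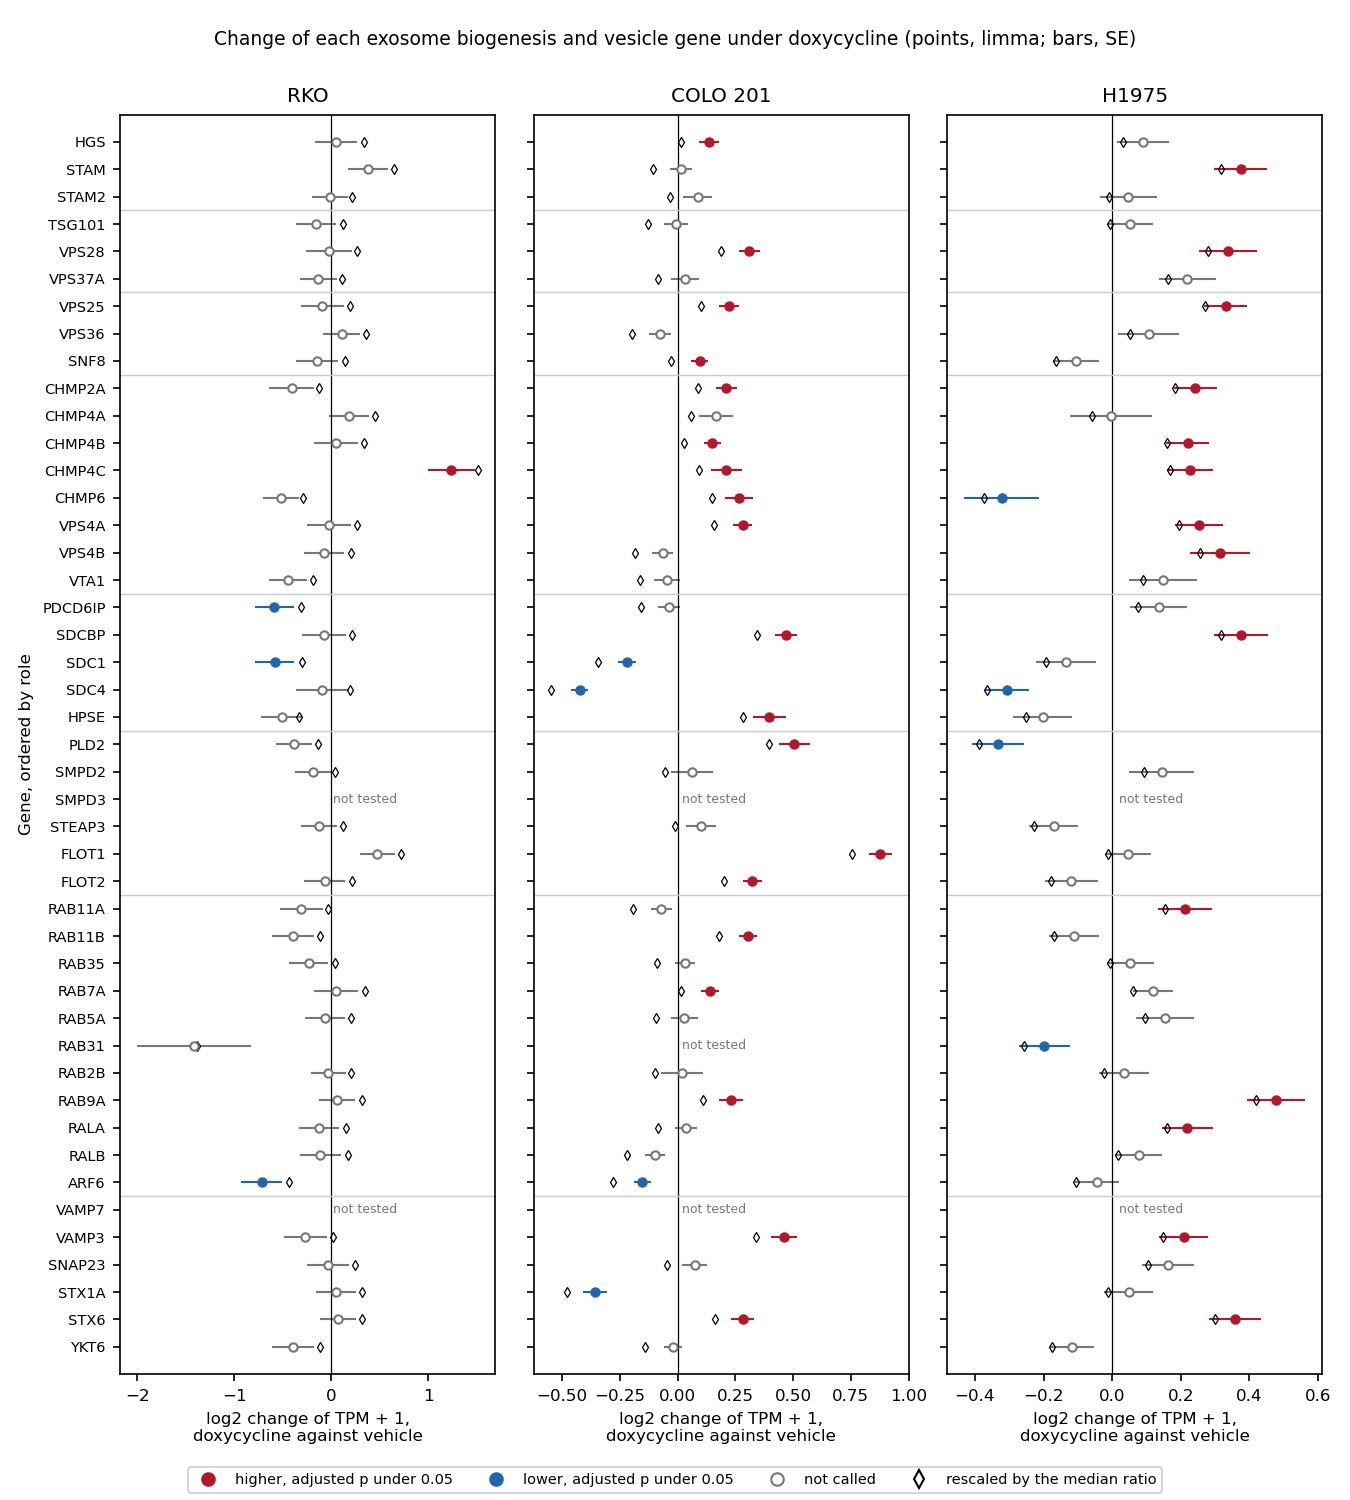
Log2 change of TPM + 1, doxycycline against vehicle, for each exosome gene (listed by role) in RKO, COLO 201 and H1975 (panels, each with its own x axis). Circles are limma estimates with SE bars, filled where called, and open diamonds are the estimates after rescaling; COLO 201 ranges from -0.42 for SDC4 to 0.88 for FLOT1.

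The plot of all changes shows short error bars in COLO 201 and long ones in RKO, where the diamonds lie to the right of the circles for all 43 tested genes.

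ESCRT-0 binds ubiquitinated cargo on the endosome through HRS, encoded by HGS, and its partners STAM and STAM2. STAM was called higher in H1975. In H1975, STAM had 64.4, 58.8 and 66.5 TPM with doxycycline, against 44.5, 52.5 and 48.6 TPM with vehicle. The STAM arms were apart, with a log2 change of 0.38 ± 0.077 (adjusted p = 0.00195). In COLO 201 STAM had a log2 change of 0.015 as deposited and was lower after rescaling, at -0.11 with a limma adjusted p of 0.041. HGS was higher in COLO 201, where it averaged 53.7 ± 0.965 TPM with doxycycline and 48.8 ± 1.74 TPM with vehicle, and the call was lost after rescaling, at 0.013, and without vehicle column 1 or 3. STAM2 was called in no line.

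ESCRT-I and ESCRT-II carry the cargo towards ESCRT-III. VPS28, the ESCRT-I subunit that contacts ESCRT-II, and VPS25, the ESCRT-II subunit that recruits CHMP6, were higher in both COLO 201 and H1975. VPS28 had 73.7, 77.1 and 81.8 TPM in the doxycycline columns of COLO 201, against 61.5, 61.7 and 63.6 TPM in its vehicle columns. In H1975, VPS28 had 49.6, 54.7 and 43.9 TPM with doxycycline, against 37.0, 37.3 and 42.2 TPM with vehicle. The arms were apart in both lines, with log2 changes of 0.31 ± 0.045 (adjusted p = 7.94e-05) in COLO 201 and 0.34 ± 0.086 (adjusted p = 0.00714) in H1975, where the call was lost without vehicle column 1 (adjusted p = 0.0529). VPS25 had 151, 145 and 159 TPM in the doxycycline columns of COLO 201, against 126, 131 and 132 TPM in its vehicle columns. In H1975, VPS25 had 154, 149 and 144 TPM with doxycycline, against 119, 117 and 119.8 TPM with vehicle. Again every doxycycline column lay above every vehicle column, with log2 changes of 0.22 ± 0.043 (adjusted p = 0.000682) in COLO 201 and 0.33 ± 0.062 (adjusted p = 0.000979) in H1975, and after rescaling VPS25 was called in H1975 but not in COLO 201 (0.10, limma adjusted p = 0.112). The other subunits gave few calls. TSG101, the ubiquitin-binding subunit of ESCRT-I, was at 72.5 ± 5.48 TPM with doxycycline and 72.8 ± 0.985 TPM with vehicle in COLO 201. In H1975 it was at 66.5 ± 2.46 TPM with doxycycline and 64.1 ± 3.02 TPM with vehicle. TSG101, VPS37A and VPS36 were called in no line as deposited. After rescaling, TSG101 (-0.13, limma adjusted p = 0.0457) and VPS36 (-0.20, limma adjusted p = 0.00094) were lower in COLO 201. SNF8, an ESCRT-II subunit, had a log2 change of 0.095 ± 0.038 (adjusted p = 0.0478) in COLO 201, a call lost when any of the 6 columns was left out, and its sign turned after rescaling (-0.029).

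The RefSeq promoter of VPS25 (GRCh38.p14, chr17:42773199-42773498, plus strand, 250 bases before to 50 after the annotated start) is shown because the gene was higher in both lines and the window holds 3 matches to CCGGAAG, the core bound by ETS factors. The letters were searched on both strands, and capitals mark the matches.
VPS25: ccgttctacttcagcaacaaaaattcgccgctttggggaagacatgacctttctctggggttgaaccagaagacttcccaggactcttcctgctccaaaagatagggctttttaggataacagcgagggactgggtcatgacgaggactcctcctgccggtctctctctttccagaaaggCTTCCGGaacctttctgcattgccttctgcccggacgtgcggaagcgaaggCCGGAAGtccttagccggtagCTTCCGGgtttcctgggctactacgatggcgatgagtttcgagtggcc

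ESCRT-III is the filament that cuts the neck of the bud. Its CHMP genes are counted here together with VPS4A, VPS4B and VTA1, as a group of 8 genes. In COLO 201, 5 of the 8 were higher and none lower, where 45.9% and 15.0% of all genes were called. In H1975, 5 of the 8 were higher and 1 lower, against 23.9% and 14.6% of all genes. The median log2 changes were 0.19 and 0.22, with 0.12 and 0.059 over all genes. After rescaling, the counts were 1 higher and 2 lower in COLO 201, where 28.5% and 28.7% of all genes were called, and 5 higher and 1 lower in H1975, where 18.5% and 19.9% were. CHMP2A, CHMP4B, CHMP4C and VPS4A were the genes higher in both lines. CHMP2A had 121, 111 and 124 TPM in the doxycycline columns of COLO 201, against 102, 101 and 104 TPM in its vehicle columns. In H1975, CHMP2A had 431, 466 and 429 TPM with doxycycline, against 359, 376 and 385 TPM with vehicle. The CHMP2A arms were apart, with log2 changes of 0.21 ± 0.045 (adjusted p = 0.00152) in COLO 201 and 0.24 ± 0.063 (adjusted p = 0.00833) in H1975, and CHMP2A, which caps the filament and recruits VPS4, kept its call after rescaling in H1975 but not in COLO 201. CHMP4B had 447, 438 and 442 TPM in the doxycycline columns of COLO 201, against 392, 396 and 407 TPM in its vehicle columns. In H1975, CHMP4B had 190.3, 194 and 185 TPM with doxycycline, against 156, 169 and 163 TPM with vehicle. CHMP4B, the main filament subunit, thus had a log2 change of 0.15 ± 0.037 (adjusted p = 0.00344) in COLO 201, a call lost on rescaling (0.026), and a log2 change of 0.22 ± 0.063 (adjusted p = 0.0136) in H1975, a call lost without vehicle column 1 or doxycycline column 1 (adjusted p = 0.0527 and 0.0707).

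CHMP4C, a CHMP4 paralog that acts in the abscission checkpoint of cell division, was the gene called in all 3 lines as deposited. After rescaling it was not called in COLO 201, and RAB9A and STX6 were called higher in all 3 lines. In RKO, where 13.7% of all genes were called higher on that scale, RAB9A was at 0.31 and STX6 at 0.32. Their limma adjusted p there was 0.0359 and 0.00781, and neither was called in RKO as deposited. CHMP4C had 25.2, 38.2 and 30.2 TPM in the doxycycline columns of RKO, against 7.68, 16.8 and 14.8 TPM in its vehicle columns. This was the largest change of any called gene of the list, with a log2 change of 1.24 ± 0.24 (adjusted p = 0.000653), and the arms were apart. Vehicle column 1 was the lowest of the 6, and without it CHMP4C was still higher, at 0.92 with a limma adjusted p of 0.00156. In COLO 201, CHMP4C had 19.2, 19.2 and 17.0 TPM with doxycycline, against 15.3, 17.3 and 14.9 TPM with vehicle. CHMP4C had 157, 143 and 161 TPM in the doxycycline columns of H1975, against 129, 129 and 134 TPM in its vehicle columns. The step was smaller in these lines, with a log2 change of 0.21 ± 0.066 (adjusted p = 0.0144) in COLO 201, where the lowest doxycycline column lay below the highest vehicle column, and a log2 change of 0.23 ± 0.067 (adjusted p = 0.0156) in H1975. The COLO 201 call was lost on rescaling (0.093, adjusted p = 0.154) and without vehicle column 1, vehicle column 3 or doxycycline column 1, and the H1975 call without vehicle column 1 or doxycycline column 1. Of the summed TPM of CHMP4A, CHMP4B and CHMP4C, CHMP4C made up 29.0% ± 1.11 with doxycycline and 15.3% ± 4.75 with vehicle in RKO, 3.94% ± 0.271 with doxycycline and 3.76% ± 0.325 with vehicle in COLO 201 and 43.4% ± 2.03 with doxycycline and 43.1% ± 0.735 with vehicle in H1975.

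VPS4A and VPS4B are paralogous ATPases that strip ESCRT-III from the membrane. In COLO 201, VPS4A had 49.9, 47.9 and 47.3 TPM with doxycycline, against 39.4, 39.4 and 40.1 TPM with vehicle. VPS4A had 92.2, 98.5 and 85.9 TPM in the doxycycline columns of H1975, against 75.8, 79.8 and 75.6 TPM in its vehicle columns. VPS4A lay above the vehicle columns in all doxycycline columns of both lines, with log2 changes of 0.28 ± 0.041 (adjusted p = 8.55e-05) in COLO 201 and 0.25 ± 0.070 (adjusted p = 0.0112) in H1975. VPS4B was higher in H1975, at 93.7 ± 9.59 TPM with doxycycline and 75.1 ± 7.58 TPM with vehicle (log2 change 0.31 ± 0.087, adjusted p = 0.0119), a call lost without vehicle column 1, and after rescaling it was lower in COLO 201 (-0.19, limma adjusted p = 0.00149). VPS4A made up 53.7% ± 0.990 with doxycycline and 47.6% ± 1.26 with vehicle of the pair in COLO 201 and 49.7% ± 4.22 with doxycycline and 50.7% ± 1.81 with vehicle in H1975. An exon of VPS4A overlaps an exon of another coding gene on its own strand in GENCODE release 29, so its reads may be shared. CHMP6, which starts the CHMP4 filament, was called in opposite directions. In COLO 201, CHMP6 had 16.0, 14.8 and 16.3 TPM with doxycycline, against 12.1, 12.7 and 13.9 TPM with vehicle. CHMP6 had 4.51, 6.19 and 4.78 TPM in the doxycycline columns of H1975, against 6.08, 6.28 and 7.66 TPM in its vehicle columns. In COLO 201 the arms were apart (log2 change 0.27 ± 0.061, adjusted p = 0.00236), and in H1975 the highest doxycycline column lay above the lowest vehicle column (log2 change -0.32 ± 0.11, adjusted p = 0.0319); the COLO 201 call was lost on rescaling (adjusted p = 0.0689), and the H1975 call without vehicle column 1, vehicle column 3 or doxycycline column 1. CHMP4A and VTA1, a cofactor of VPS4, were called in no line as deposited. After rescaling, VTA1 was lower in COLO 201 (-0.16, limma adjusted p = 0.0101) and CHMP4A was higher in RKO (0.46, limma adjusted p = 0.0405).

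In the syntenin route, syntenin rose and SDC4 fell in the same lines. SDCBP encodes syntenin, the adaptor between syndecans and ALIX. In COLO 201, SDCBP had 71.6, 74.8 and 69.1 TPM with doxycycline, against 51.0, 54.6 and 49.3 TPM with vehicle. SDCBP had 143, 133 and 157 TPM in the doxycycline columns of H1975, against 101, 118 and 113 TPM in its vehicle columns. Again the arms were apart in both, with log2 changes of 0.47 ± 0.048 (adjusted p = 4.99e-06) in COLO 201 and 0.38 ± 0.078 (adjusted p = 0.00207) in H1975, and both calls held after rescaling. SDC4, a syndecan that carries heparan sulfate, went the other way. In COLO 201, SDC4 had 206, 206 and 206 TPM with doxycycline, against 274, 283 and 274 TPM with vehicle. SDC4 had 529, 532 and 506 TPM in the doxycycline columns of H1975, against 607, 674 and 659 TPM in its vehicle columns. It fell by 0.42 ± 0.036 (adjusted p = 8.96e-07) on the log2 scale in COLO 201 and by 0.31 ± 0.063 (adjusted p = 0.00203) in H1975, with no overlap of the arms, and both limma calls held under every alternative. SDC4 was the most abundant exosome gene of the H1975 table in TPM.

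SDC1, another syndecan, was lower in COLO 201 and RKO. In COLO 201, SDC1 had 502, 492 and 502 TPM with doxycycline, against 563, 594 and 586 TPM with vehicle. SDC1 had 9.77, 12.4 and 11.7 TPM in the doxycycline columns of RKO, against 14.8, 19.8 and 17.7 TPM in its vehicle columns. The arms were apart, with log2 changes of -0.22 ± 0.038 (adjusted p = 0.000333) in COLO 201 and -0.58 ± 0.20 (adjusted p = 0.0427) in RKO. The RKO call was lost without vehicle column 2 or 3 or doxycycline column 1 or 3, with adjusted p between 0.122 and 0.205. In H1975 SDC1 averaged 127 ± 16.6 TPM with doxycycline and 139 ± 10.1 TPM with vehicle and was not called. HPSE, the heparanase that trims the heparan sulfate of syndecans, was higher in COLO 201. In COLO 201, HPSE had 10.8, 11.2 and 9.43 TPM with doxycycline, against 7.82, 8.17 and 7.10 TPM with vehicle. HPSE had 3.33, 3.55 and 3.95 TPM in the doxycycline columns of H1975, against 4.10, 4.58 and 4.22 TPM in its vehicle columns. In COLO 201 the HPSE arms were apart upwards (log2 change 0.40 ± 0.072, adjusted p = 0.000453); in H1975 they were apart downwards, with a log2 change of -0.20 ± 0.086 (adjusted p = 0.0776) as deposited and -0.25 with an adjusted p of 0.0238 after rescaling. PDCD6IP, which encodes ALIX, was lower in RKO. In RKO, PDCD6IP had 8.90, 13.8 and 10.7 TPM with doxycycline, against 16.2, 18.8 and 16.1 TPM with vehicle. For PDCD6IP the arms were apart, with a log2 change of -0.59 ± 0.20 (adjusted p = 0.0438), and the call was lost without the same 4 columns as for SDC1. In COLO 201 and H1975 PDCD6IP was not called as deposited, and after rescaling it was lower in COLO 201 (-0.16, limma adjusted p = 0.00351).

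The RefSeq promoter of SDC4 (GRCh38.p14, chr20:45348375-45348674, minus strand, read in the direction of the gene) is shown as that of the gene lower in both lines. Capitals mark its 8 matches to GGGCGG, the GC box bound by SP factors, on either strand.
SDC4: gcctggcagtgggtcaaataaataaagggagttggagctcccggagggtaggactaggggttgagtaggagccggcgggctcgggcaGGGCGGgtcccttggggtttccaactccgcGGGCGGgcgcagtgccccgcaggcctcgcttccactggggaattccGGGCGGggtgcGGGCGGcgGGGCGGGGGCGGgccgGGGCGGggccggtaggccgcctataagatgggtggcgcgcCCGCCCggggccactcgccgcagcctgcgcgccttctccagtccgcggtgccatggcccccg

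Among lipid enzymes and raft proteins, COLO 201 and H1975 differed. PLD2, the phospholipase D that makes phosphatidic acid and acts with ARF6 in syntenin-dependent budding, had opposite calls. PLD2 had 8.24, 8.63 and 9.29 TPM in the doxycycline columns of COLO 201, against 6.13, 6.05 and 5.38 TPM in its vehicle columns. In H1975, PLD2 had 16.7, 17.5 and 16.0 TPM with doxycycline, against 20.6, 20.2 and 23.2 TPM with vehicle. It was higher in COLO 201 with a log2 change of 0.50 ± 0.067 (adjusted p = 4.06e-05) and lower in H1975 with a log2 change of -0.33 ± 0.077 (adjusted p = 0.00404); the arms were apart in both lines, and both calls held under every alternative. FLOT1 and FLOT2 encode flotillins, scaffolds of lipid rafts. FLOT1 had 98.5, 91.2 and 97.7 TPM in the doxycycline columns of COLO 201, against 48.8, 51.8 and 54.5 TPM in its vehicle columns. FLOT1 had the largest change of the exosome genes in COLO 201, with a log2 change of 0.88 ± 0.049 (adjusted p = 3.1e-08) and a ratio of means of 1.85. In RKO, FLOT1 had 5.66, 8.12 and 6.68 TPM with doxycycline, against 4.44, 4.88 and 4.45 TPM with vehicle. In RKO the arms were apart as well, but the limma call was missed as deposited (log2 change 0.47 ± 0.18, adjusted p = 0.0662) and made after rescaling (0.72, adjusted p = 0.000919). FLOT1 had 90.9, 96.7 and 86.9 TPM in the doxycycline columns of H1975, against 88.4, 88.4 and 88.5 TPM in its vehicle columns. In H1975 the arms overlapped (log2 change 0.047 ± 0.065, adjusted p = 0.596, 95% confidence interval -0.093 to 0.19).

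In COLO 201, FLOT2 had 77.7, 75.4 and 73.2 TPM with doxycycline, against 58.4, 61.3 and 60.6 TPM with vehicle. FLOT2 was thus higher in COLO 201, with a log2 change of 0.32 ± 0.041 (adjusted p = 2.71e-05), and was called in neither other line. The share of FLOT1 in the summed flotillin TPM was 55.9% ± 1.22 with doxycycline and 46.2% ± 0.995 with vehicle in COLO 201. It was 28.0% ± 0.898 with doxycycline and 20.2% ± 3.28 with vehicle in RKO and 65.0% ± 0.282 with doxycycline and 62.3% ± 1.76 with vehicle in H1975. The neighbours of FLOT1 were looked up after its value was seen. Of the 18 tested genes within 250000 bases of FLOT1, 14 were higher and 2 lower in COLO 201, including NRM at 0.75 on the log2 scale. In H1975, 6 were higher and 1 lower of 17, and in RKO 1 and 1 of 12. After rescaling the counts were 10 and 2 in COLO 201, 3 and 2 in H1975 and 2 and 1 in RKO. Of all COLO 201 genes, 45.9% were higher and 15.0% lower as deposited, and 28.5% and 28.7% after rescaling. For H1975 these shares were 23.9% and 14.6% as deposited, and 18.5% and 19.9% after rescaling. For RKO they were 2.09% and 16.1% as deposited, and 13.7% and 14.2% after rescaling. No test of the neighbourhood was made. SMPD2, a neutral sphingomyelinase, averaged 13.5 ± 2.29 TPM with doxycycline and 12.8 ± 0.898 TPM with vehicle in COLO 201. STEAP3, a metalloreductase also known as TSAP6, averaged 27.5 ± 1.60 TPM with doxycycline and 31.0 ± 0.939 TPM with vehicle in H1975. Neither was called in any line as deposited, and after rescaling STEAP3 was lower in H1975 (-0.23, limma adjusted p = 0.018). SMPD3, the neutral sphingomyelinase whose ceramide product drives budding, was at most 0.236 TPM in every column of the 3 lines and was not tested.

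The RefSeq promoter of FLOT1 (GRCh38.p14, chr6:30742638-30742937, minus strand, in the direction of the gene) is shown as that of the gene with the largest change in COLO 201. Capitals mark 8 matches to GGGCGG on either strand, with 2 bases shared by overlapping matches.
FLOT1: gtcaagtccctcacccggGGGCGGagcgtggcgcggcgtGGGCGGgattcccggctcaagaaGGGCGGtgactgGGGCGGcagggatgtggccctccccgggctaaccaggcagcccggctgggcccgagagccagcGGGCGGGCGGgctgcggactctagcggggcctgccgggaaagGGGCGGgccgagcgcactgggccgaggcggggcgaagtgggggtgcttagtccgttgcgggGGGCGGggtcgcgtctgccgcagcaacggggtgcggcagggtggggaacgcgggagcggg

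**Figure D2:**
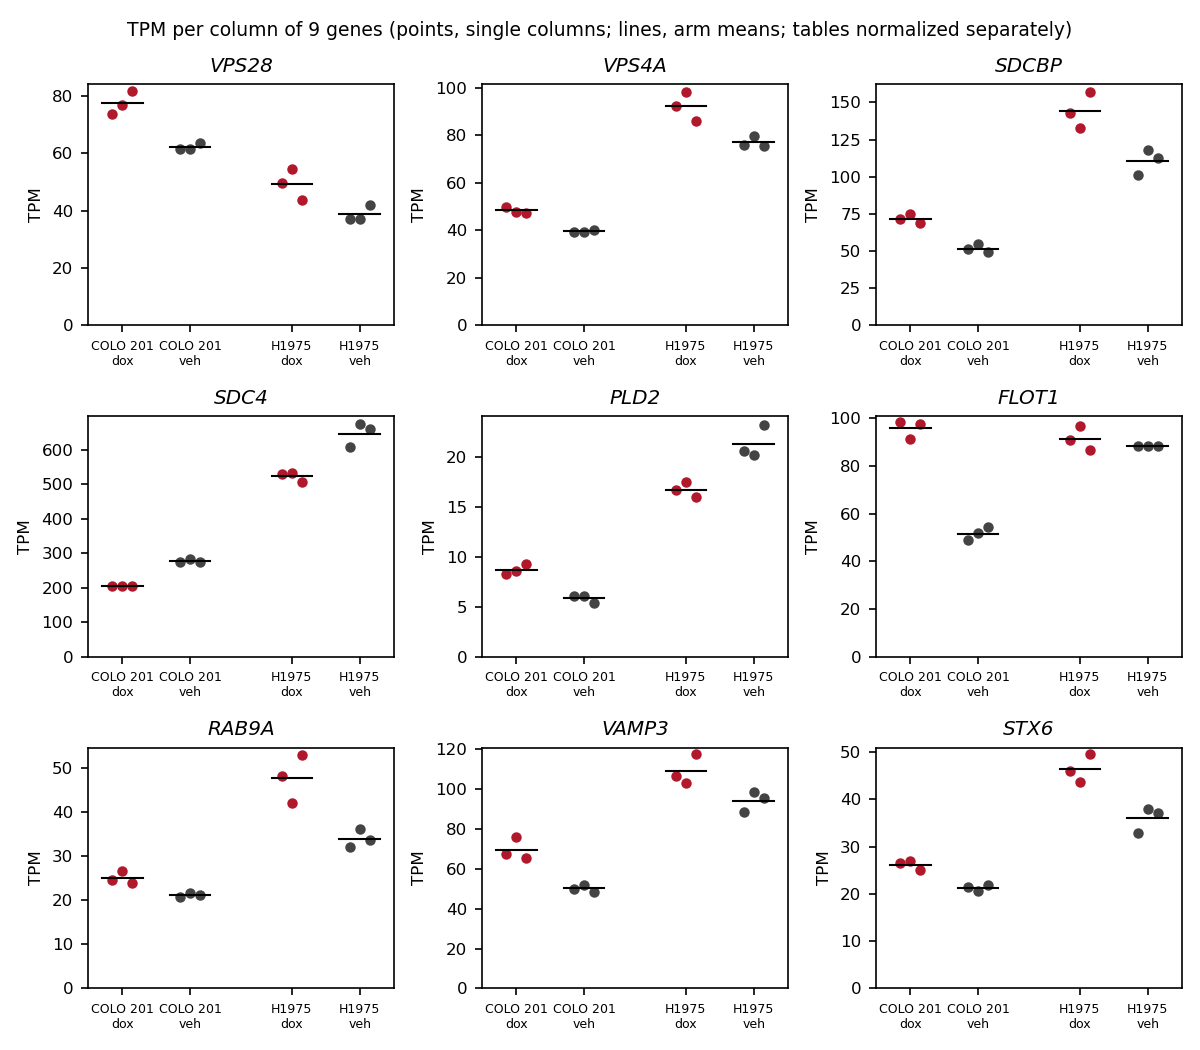
TPM per column for 9 exosome genes in COLO 201 and H1975, with doxycycline columns (dox, red) left of vehicle columns (veh, grey) and a line at each arm's mean. Points are single columns, and the 2 tables were normalized separately, so heights are to be read within a line; PLD2 lies higher with doxycycline in COLO 201 and lower in H1975.

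The plot of TPM by column shows that 8 of its 9 genes had no overlap of the arms in either line, the exception being FLOT1 in H1975. Of all tested genes, 48.5% lay wholly above and 16.6% wholly below the vehicle columns in COLO 201, and 30.7% and 18.4% in H1975, and the 9 genes were picked from those called.

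The small GTPases include markers of each endosomal station. RAB9A, which serves transport between late endosomes and the trans-Golgi network, was higher in both lines. RAB9A had 24.6, 26.8 and 24.0 TPM in the doxycycline columns of COLO 201, against 20.8, 21.7 and 21.3 TPM in its vehicle columns. In H1975, RAB9A had 48.4, 42.1 and 53.1 TPM with doxycycline, against 32.2, 36.1 and 33.6 TPM with vehicle. It had the largest change of the exosome genes in H1975, a log2 change of 0.48 ± 0.085 (adjusted p = 0.000703), and a log2 change of 0.23 ± 0.051 (adjusted p = 0.00189) in COLO 201, and both calls held under every alternative. RAB11A and RAB11B, paralogs of the recycling endosome, were called in different lines. RAB11B had 105, 107 and 107 TPM in the doxycycline columns of COLO 201, against 87.6, 86.8 and 83.6 TPM in its vehicle columns. In H1975, RAB11A had 71.7, 70.1 and 81.4 TPM with doxycycline, against 58.5, 67.8 and 65.7 TPM with vehicle. RAB11B had a log2 change of 0.30 ± 0.038 (adjusted p = 2.34e-05) in COLO 201 and RAB11A had a log2 change of 0.21 ± 0.079 (adjusted p = 0.0451) in H1975. The RAB11A call was lost on rescaling and without vehicle column 1 or 3 or doxycycline column 1 or 3. In COLO 201 RAB11A was lower after rescaling (-0.19, limma adjusted p = 0.00124). RAB11A made up 50.7% ± 1.40 with doxycycline and 57.2% ± 0.312 with vehicle of the pair in COLO 201 and 55.8% ± 3.43 with doxycycline and 50.1% ± 1.50 with vehicle in H1975.

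ARF6, a GTPase of the plasma membrane and endosomes that acts with PLD2, was lower in COLO 201 and RKO. ARF6 had 260.4, 259 and 266 TPM in the doxycycline columns of COLO 201, against 287, 300.0 and 287 TPM in its vehicle columns. In RKO, ARF6 had 17.7, 23.3 and 20.6 TPM with doxycycline, against 34.3, 36.6 and 31.7 TPM with vehicle. ARF6 was apart between the arms in both, with log2 changes of -0.15 ± 0.037 (adjusted p = 0.00348) in COLO 201 and -0.72 ± 0.21 (adjusted p = 0.0183) in RKO, and ARF6 was not called in H1975 (log2 change -0.045 ± 0.065, adjusted p = 0.613). The RKO call held without vehicle column 1 (-0.71, limma adjusted p = 0.0198) but was lost without vehicle column 2 or doxycycline column 1 or 3. RAB7A, which marks late endosomes, was higher in COLO 201 at 252 ± 7.27 TPM with doxycycline and 229 ± 4.42 TPM with vehicle (log2 change 0.14 ± 0.038, adjusted p = 0.00686), a call lost on rescaling (0.016). RALA, which acts through the exocyst, was higher in H1975 at 128 ± 10.8 TPM with doxycycline and 109.8 ± 5.36 TPM with vehicle (log2 change 0.22 ± 0.074, adjusted p = 0.0307), a call also lost on rescaling and without vehicle column 1 or 3 or doxycycline column 1 or 3. RALB, RAB35, RAB5A and RAB2B were called in no line as deposited, and after rescaling RALB was lower in COLO 201 (-0.22, limma adjusted p = 0.000549).

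RAB31, which sorts cargo with flotillins into vesicles, was called in H1975. RAB31 had 57.4, 56.3 and 62.4 TPM in the doxycycline columns of H1975, against 62.3, 71.9 and 68.3 TPM in its vehicle columns. In H1975 the lowest vehicle column lay just below the highest doxycycline column, with a log2 change of -0.20 ± 0.074 (adjusted p = 0.0473), and the call was lost without vehicle column 2 or 3 or doxycycline column 1 or 2. In COLO 201, RAB31 had 0.176, 0.222 and 0.155 TPM with doxycycline, against 1.15, 1.32 and 1.27 TPM with vehicle. The COLO 201 arms were apart, but the mean over the 6 columns was under 1 TPM and no test was made. In RKO RAB31 was at 17.9 TPM in vehicle column 1 and listed at 0 in the other 5 columns, the same column in which the fibroblast markers were found.

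Of the SNAREs, VAMP3, an R-SNARE of recycling endosomes, and STX6, a syntaxin of the trans-Golgi network and endosomes, were higher in COLO 201 and H1975. VAMP3 had 67.3, 76.0 and 65.7 TPM in the doxycycline columns of COLO 201, against 50.1, 52.1 and 48.5 TPM in its vehicle columns. In H1975, VAMP3 had 107, 103 and 118 TPM with doxycycline, against 88.4, 98.7 and 95.6 TPM with vehicle. VAMP3 was apart in both lines, with log2 changes of 0.46 ± 0.055 (adjusted p = 1.66e-05) in COLO 201 and 0.21 ± 0.072 (adjusted p = 0.0344) in H1975, where the call was lost without vehicle column 1 or 3 or doxycycline column 1 or 3. STX6 had 26.5, 26.8 and 25.0 TPM in the doxycycline columns of COLO 201, against 21.4, 20.7 and 21.9 TPM in its vehicle columns. In H1975, STX6 had 46.0, 43.6 and 49.5 TPM with doxycycline, against 32.9, 37.9 and 37.1 TPM with vehicle. STX6 was also apart in both, with log2 changes of 0.28 ± 0.048 (adjusted p = 0.000313) in COLO 201 and 0.36 ± 0.077 (adjusted p = 0.00252) in H1975, and its calls held under every alternative. STX1A, a plasma membrane syntaxin known from synaptic release, was lower in COLO 201. STX1A had 23.9, 23.6 and 22.5 TPM in the doxycycline columns of COLO 201, against 28.4, 29.9 and 32.3 TPM in its vehicle columns. For STX1A every doxycycline column lay below every vehicle column, with a log2 change of -0.36 ± 0.054 (adjusted p = 0.000107), and STX1A was called in neither other line. SNAP23, a plasma membrane SNARE, and YKT6, an R-SNARE, were called in no line; in H1975 SNAP23 averaged 44.7 ± 2.79 TPM with doxycycline and 39.8 ± 2.75 TPM with vehicle, and YKT6 averaged 171 ± 4.40 TPM with doxycycline and 186 ± 9.59 TPM with vehicle. VAMP7 was listed at 0 in 17 of the 18 columns. It lies in a pseudoautosomal region, and 16 or 17 of the 18 pseudoautosomal coding genes of each table were listed at 0 in all columns, so nothing is read from its value.

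The RefSeq promoters of VAMP3 (GRCh38.p14, chr1:7771046-7771345, plus strand) and STX6 (GRCh38.p14, chr1:181022821-181023120, minus strand) are shown, in the direction of each gene, as those of the SNAREs higher in both lines. Capitals mark 1 match to CCGGAAG and 4 to GGGCGG in VAMP3 and 1 to CACGTG, an E-box, in STX6, on either strand and with no overlap.
VAMP3: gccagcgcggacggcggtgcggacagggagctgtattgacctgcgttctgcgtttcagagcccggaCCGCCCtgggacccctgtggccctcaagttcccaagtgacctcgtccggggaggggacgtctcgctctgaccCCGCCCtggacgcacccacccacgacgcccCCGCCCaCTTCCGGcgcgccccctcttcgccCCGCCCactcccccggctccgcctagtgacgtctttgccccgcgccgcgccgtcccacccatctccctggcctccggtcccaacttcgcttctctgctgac
STX6: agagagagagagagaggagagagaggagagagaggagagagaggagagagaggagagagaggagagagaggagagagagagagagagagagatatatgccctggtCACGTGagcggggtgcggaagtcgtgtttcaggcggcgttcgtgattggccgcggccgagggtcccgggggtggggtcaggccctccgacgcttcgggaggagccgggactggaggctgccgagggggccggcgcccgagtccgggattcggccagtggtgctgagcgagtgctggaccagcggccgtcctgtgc

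Promoters were found for 39 of the 45 genes; those of VPS28, VPS37A, CHMP4C, CHMP6, SDCBP and SMPD3 are missing. CCGGAAG was found in 15 of the 39 windows, or 38.5%, against 10.3% of all 35116 promoters and 19.3% of the 10541 promoters of genes tested in all 3 lines. GGGCGG was found in 79.5%, against 45.0% and 69.0%, and CACGTG in 15.4%, against 7.26% and 9.92%. Of the 7 genes higher in both COLO 201 and H1975 that had a promoter, 4 held CCGGAAG, namely VPS25, CHMP2A, CHMP4B and VAMP3. The NRF1 motif was in 15.4%, against 5.78% of all promoters and 11.3% of those of tested genes. The other motifs were rarer among the 39 than among tested genes: the CCAAT box CCAAT was in 25.6%, against 34.6% and 35.3%, the AP-1 motif TGANTCA in 2.56%, against 7.71% and 4.93%, and the CRE TGACGTCA in none, against 1.85% and 3.12%. These are letter matches in 300-base windows and describe the sequences only.

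COLO 201 and H1975 shared 10 higher genes of the 42 tested in both: VPS28, VPS25, CHMP2A, CHMP4B, CHMP4C, VPS4A, SDCBP, RAB9A, VAMP3 and STX6. This is 23.8%, where 14.0% of all 10817 genes tested in both lines were higher in both. The 10 were 10 of 19 higher genes in COLO 201 and 10 of 14 in H1975. With the call required on both scales, 6 remained, VPS28, VPS4A, SDCBP, RAB9A, VAMP3 and STX6, or 14.3% against 7.28%. SDC4 alone was lower in both lines, where 3.68% of all genes were, and CHMP6 and PLD2 had opposite calls, where 6.25% of all genes did. After rescaling the opposite calls were STAM, VPS4B, HPSE and PLD2, or 9.52%, where 7.51% of all genes had them.

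The changes themselves were then compared between lines in a joint limma fit. Between COLO 201 and H1975 13 of 42 genes differed, where 38.6% of 10823 genes did. PLD2 and FLOT1 differed most, with differences of 0.84 and 0.83 on the log2 scale (adjusted p = 8e-06 and 5.62e-07). HPSE, CHMP6, FLOT2, RAB11B, STEAP3, VAMP3 and SNF8 also changed more upwards in COLO 201, and STX1A, VPS4B, STAM and RAB11A more upwards in H1975. SDC4, SDCBP, RAB9A and STX6 gave no called difference as deposited. Their differences were -0.12 (-0.26 to 0.024), 0.092 (-0.11 to 0.29), -0.25 (-0.47 to -0.026) and -0.077 (-0.27 to 0.11), each with its 95% confidence interval. After rescaling, SDC4 and RAB9A did differ, by -0.18 (adjusted p = 0.0209) and -0.31 (adjusted p = 0.0109), and SDCBP and STX6 were again not called. COLO 201 differed from RKO in 9 of 42 genes, where 38.2% of 9508 did, and H1975 from RKO in 3 of 43, where 22.9% of 9749 did; CHMP4C changed more in RKO than in either other line.

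**Figure D3:**
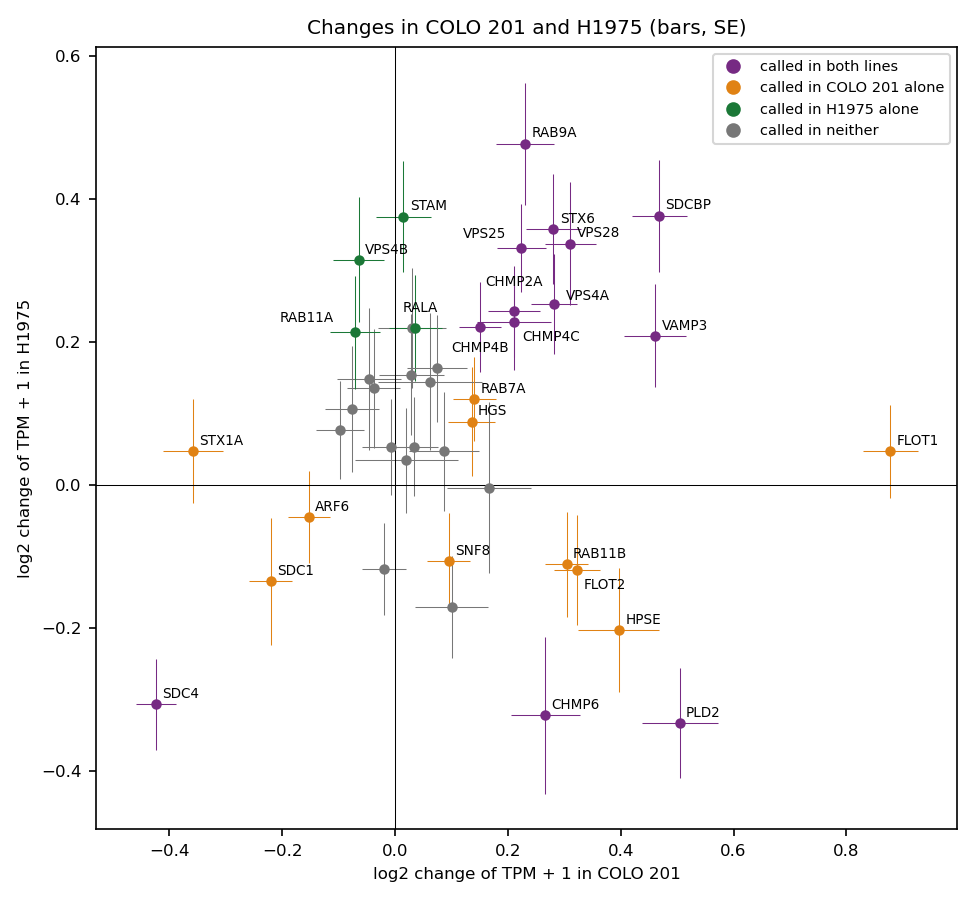
Log2 change of TPM + 1, doxycycline against vehicle, in COLO 201 (x axis) and H1975 (y axis) for the 42 exosome genes tested in both, with SE bars and names for called genes. The 10 genes higher in both lie in the upper right, SDC4 in the lower left, and CHMP6 and PLD2 in the lower right.

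The plot of both lines shows FLOT1 alone at the far right, at 0.88 in COLO 201 and 0.047 in H1975.

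In RKO the calls were few and depended on scale and columns. As deposited, CHMP4C was higher and PDCD6IP, SDC1 and ARF6 were lower. Without vehicle column 1, 42 genes were tested, CHMP4C was higher, and CHMP6, PDCD6IP, SDC1 and ARF6 were lower, where 2.10% and 18.2% of all genes were called. With that column left out and the rest rescaled, 22 were higher and 7 lower, where 28.9% and 29.9% were. CHMP4C, PDCD6IP, SDC1 and ARF6 kept their direction and call in these fits and in the rescaled one, but none of the 4 was called when genes of any TPM above 0 were tested. SDC4 moved with both the column and the scale. In RKO, SDC4 had 28.8, 40.6 and 37.3 TPM with doxycycline, against 67.6, 31.8 and 24.5 TPM with vehicle. With all columns the arms overlapped and SDC4 was not called (log2 change -0.091 ± 0.27, adjusted p = 0.834). Without vehicle column 1 the log2 change was 0.32 and not called (adjusted p = 0.337), and after rescaling of all 6 columns it was 0.20. With both together SDC4 was higher, at 0.63 with an adjusted p of 9.5e-06, which is opposite to its direction in COLO 201 and H1975.

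**Figure D4:**
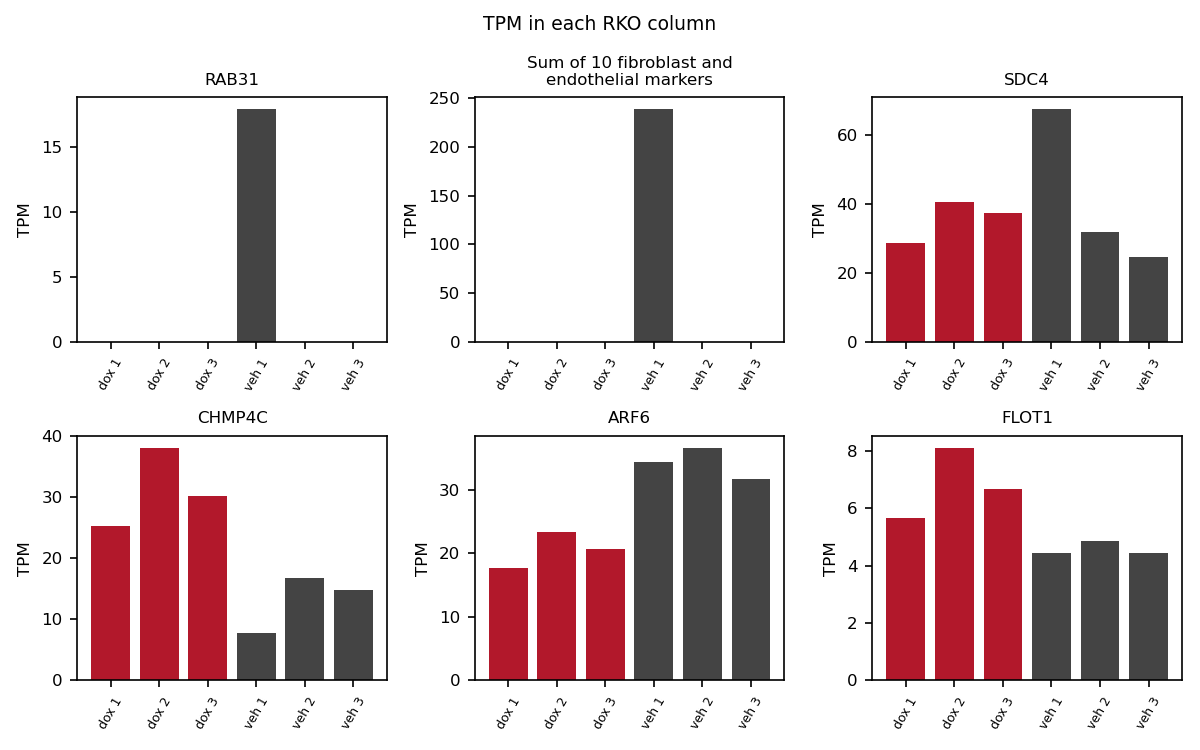
TPM in each RKO column (doxycycline columns red, dox 1 to 3; vehicle columns grey, veh 1 to 3) for 5 exosome genes and for the sum of 10 fibroblast and endothelial markers. RAB31 and the marker sum are visibly above 0 in vehicle column 1 only, SDC4 is highest there, and CHMP4C, ARF6 and FLOT1 separate the arms.

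The plot of RKO columns shows that ARF6 in vehicle column 1, 34.3 TPM, lay between the other vehicle columns, while CHMP4C there, 7.68 TPM, lay below both.

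Further genes of the same machinery were read from lists outside the 45. Their counts are to be read against the shares of all genes called higher and lower, which were 45.9% and 15.0% in COLO 201, 23.9% and 14.6% in H1975, and 2.09% and 16.1% in RKO. Of 16 other ESCRT genes, 5 were higher and 2 lower in COLO 201, 2 and 2 in H1975 and none in RKO, where 15 were tested, so the shares called higher lay below those of all genes in COLO 201 and H1975. MVB12A and MVB12B, alternative ESCRT-I subunits, moved in opposite directions in COLO 201, with log2 changes of 0.51 ± 0.060 (adjusted p = 1.52e-05) and -0.53 ± 0.054 (adjusted p = 5.13e-06), and MVB12B was lower in H1975 too (log2 change -0.42 ± 0.092, adjusted p = 0.00294). CHMP2B, a paralog of CHMP2A, averaged 132 ± 20.6 TPM with doxycycline and 89.4 ± 9.54 TPM with vehicle in H1975 (log2 change 0.55 ± 0.10, adjusted p = 0.000939). At an unadjusted limma p under 0.05 the RKO count over this list was 1 of 15, where 3608 of all 10551 tested RKO genes were under it.

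Of the heparan sulfate and lipid partners, 7 of 13 tested were higher and 1 lower in COLO 201, 4 of 14 higher and 4 lower in H1975, and 1 of 13 higher and 1 lower in RKO, where 45.9%, 23.9% and 2.09% of all genes were higher and 15.0%, 14.6% and 16.1% lower in COLO 201, H1975 and RKO. UGCG, which makes glucosylceramide from ceramide, was lower in all 3 lines. UGCG had 8.79, 10.5 and 7.61 TPM in the doxycycline columns of COLO 201, against 22.1, 22.8 and 20.2 TPM in its vehicle columns. In H1975, UGCG had 43.8, 40.1 and 50.3 TPM with doxycycline, against 62.2, 72.8 and 69.4 TPM with vehicle. UGCG had 5.22, 8.48 and 6.24 TPM in the doxycycline columns of RKO, against 32.6, 20.8 and 18.7 TPM in its vehicle columns. Its arms were apart in every line, with log2 changes of -1.20 ± 0.089 (adjusted p = 3.28e-07) in COLO 201, -0.60 ± 0.087 (adjusted p = 0.000138) in H1975 and -1.69 ± 0.22 (adjusted p = 5.17e-06) in RKO. SPHK1, which phosphorylates sphingosine, was higher in H1975 (22.4 ± 0.921 TPM with doxycycline and 10.7 ± 0.363 TPM with vehicle; log2 change 1.00 ± 0.072, adjusted p = 2.52e-07) and in RKO (log2 change 0.71 ± 0.24, adjusted p = 0.0437). In RKO SPHK1, the only gene of this list called higher as deposited, lost its call without vehicle column 1 (0.37, limma adjusted p = 0.267). UGCG kept its call there (-1.46, limma adjusted p = 1.75e-08). SPHK1 was called higher after rescaling of all columns (0.99, limma adjusted p = 0.0332). With that column left out and the rest rescaled it was also higher (0.67, limma adjusted p = 1.51e-06). PLD1, the paralog of PLD2, and SMPD1, the acid sphingomyelinase, were higher in COLO 201. PLD1 averaged 14.2 ± 0.740 TPM with doxycycline and 8.10 ± 0.102 TPM with vehicle, and SMPD1 averaged 11.0 ± 1.28 TPM with doxycycline and 6.20 ± 0.408 TPM with vehicle.

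Among the other RAB and ARF genes 10 of 20 were higher and 2 lower in COLO 201, 6 of 22 and 2 in H1975, and 0 of 21 and 2 in RKO, again near the 45.9% and 23.9% of all genes that were higher in COLO 201 and H1975. RAB25, an epithelial relative of RAB11, was higher in COLO 201 (log2 change 0.37 ± 0.043, adjusted p = 1.52e-05) and H1975 (log2 change 0.53 ± 0.076, adjusted p = 0.000119), and RAB5C was lower in RKO at 19.8 ± 2.46 TPM with doxycycline and 36.1 ± 3.67 TPM with vehicle. RAB and RAL regulators gave 6 higher and 3 lower of 16 in COLO 201, 2 and 1 of 16 in H1975, and 0 and 1 of 17 in RKO, where CHML, which escorts RABs for lipid attachment, was at 2.99 ± 0.614 TPM with doxycycline and 6.97 ± 1.07 TPM with vehicle. Other SNAREs and fusion factors gave 17 higher and 2 lower of 28 in COLO 201, 4 and 2 of 28 in H1975, and 1 and 1 of 29 in RKO, where 45.9%, 23.9% and 2.09% of all genes were higher. NAPG and NSF, which take spent SNARE complexes apart, were higher in COLO 201. NAPG averaged 71.4 ± 2.92 TPM with doxycycline and 45.3 ± 2.10 TPM with vehicle and NSF averaged 68.7 ± 2.68 TPM with doxycycline and 51.3 ± 1.58 TPM with vehicle. Both differed by more than the SD of either arm. STX3 and STX4, plasma membrane syntaxins, were higher in H1975, where STX3 averaged 33.5 ± 1.82 TPM with doxycycline and 23.7 ± 1.73 TPM with vehicle and STX4 averaged 62.0 ± 4.40 TPM with doxycycline and 49.1 ± 3.01 TPM with vehicle. The exocyst, the tethering complex of RAL proteins, gave 4 higher and 2 lower of 8 in COLO 201, 2 and 1 in H1975, and 0 and 1 in RKO, and EXOC4 was higher in COLO 201 (log2 change 0.38 ± 0.041, adjusted p = 8.26e-06) and H1975 (log2 change 0.27 ± 0.070, adjusted p = 0.00817). After rescaling, the COLO 201 splits were 3 higher and 9 lower for ESCRT, 3 and 3 for lipid partners, 6 and 5 for RABs and ARFs, 4 and 7 for the regulators, 11 and 5 for SNAREs and 1 and 2 for the exocyst, where 28.5% of all genes were higher and 28.7% lower.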

How the data were processed

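RNA was taken with RNeasy Plus Mini columns and libraries were made with a stranded, poly(A)-selecting TruSeq kit, per the labels' protocols. The authors deposited 1 table of TPM values per line, and the submitters' processing notes name STAR, DESeq2 and GRCh38 with no version. The gene annotation and whether counting used strand are not given in the sources used here. Exons of 11 of the 45 genes overlap an exon of another coding gene on the opposite strand, and those of 3 genes on the same strand, in GENCODE release 29. Arms were taken from the column headings, and column numbers could not be tied to sample titles. TPM holds no read depth, so no counting error could be given.

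From the deposited TPM, log2(TPM + 1) was computed and fitted per line with limma 3.58.1 in R 4.3.3, with a mean-variance trend and Benjamini-Hochberg adjustment over all genes with a mean of at least 1 TPM. Lines were compared in joint fits of pairs of tables. The fitting code was tested on simulated data. The 45 genes and the further lists were chosen with earlier results of these data known. Values in every column are given for genes called in at least 2 lines, the 8 largest called changes per line and opposite calls, and for at most 3 genes per further list and line, those with the smallest adjusted p, by mean or change; 1 such gene is not reported here. Alternatives were pseudocounts of 0.1 and 5, no minimum or one of 5 TPM, rescaling by the median ratio, removal of small noncoding and mitochondrial genes, no trend, a replicate block, and each column left out in turn.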

Additional observations from a re-analysis of the deposited data

Results flagged for a closer look

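The genes listed here were called in the joint limma test of whether the change with doxycycline differed between a pair of lines, adjusted over all genes tested in both. Each value is the log2 change of the line named first minus that of the line named second.

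Between COLO 201 and H1975, the largest differences were in PLD2 and FLOT1. The difference was 0.84 for PLD2 (adjusted p = 8e-06), 0.83 for FLOT1 (adjusted p = 5.62e-07) and 0.44 for FLOT2 (adjusted p = 0.000751). HPSE, the heparanase, differed by 0.60 (adjusted p = 0.00052) and STEAP3, which was called in neither line by itself, by 0.27 (adjusted p = 0.0285). In the ESCRT machinery the difference was 0.59 for CHMP6 (adjusted p = 0.00316), 0.20 for SNF8 (adjusted p = 0.0268), -0.36 for STAM (adjusted p = 0.00572) and -0.38 for VPS4B (adjusted p = 0.00984). The paralogs RAB11B and RAB11A differed in opposite directions, by 0.41 (adjusted p = 0.000664) and -0.28 (adjusted p = 0.0238). Of the SNAREs, VAMP3 differed by 0.25 (adjusted p = 0.0398) and STX1A by -0.41 (adjusted p = 0.00192). After rescaling, 12 of the 13 were also called, and SNF8 was not (0.14, adjusted p = 0.105). The rescaled fit called 19 genes in all, 8 higher in COLO 201 and 11 lower, where the fit as deposited called 9 higher and 4 lower. No share of all genes is given for the rescaled fit.

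Between COLO 201 and RKO, CHMP4C differed by -1.03 (adjusted p = 0.0111), its change being larger in RKO. The other 8 had higher values in COLO 201 as deposited. HPSE differed by 0.90 (adjusted p = 0.00234), PLD2 by 0.89 (adjusted p = 0.0012), CHMP6 by 0.78 (adjusted p = 0.0028) and RAB11B by 0.70 (adjusted p = 0.00985), and all 5 were also called after rescaling. CHMP2A differed by 0.62 (adjusted p = 0.0399), VAMP3 by 0.73 (adjusted p = 0.0141), ARF6 by 0.56 (adjusted p = 0.019) and PDCD6IP by 0.55 (adjusted p = 0.0332). These 4 lost their call on rescaling, with adjusted p between 0.0793 and 0.261. The rescaled fit called 15 genes in all, of which 4 were higher in COLO 201 and the rest lower, so the main direction depended on scale. No share of all genes is given for that fit.

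Between H1975 and RKO the difference was -1.01 for CHMP4C (adjusted p = 0.0256), 0.72 for PDCD6IP (adjusted p = 0.0234) and 0.67 for ARF6 (adjusted p = 0.016), and all 3 were also called after rescaling. RKO vehicle column 1, which held fibroblast markers, entered both comparisons with RKO. Without it, 16 genes were called against COLO 201 and 10 against H1975, with no share of all genes given for these fits.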

How the results depend on the processing

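Of the calls made as deposited, 15 of 23 in COLO 201, 9 of 18 in H1975 and 0 of 4 in RKO were made under every alternative that gave a value. For calls that were lost the cause was not tested, and TPM gives no depth that would show which of them are limited by counting. Where a count below has no share of all genes beside it here or above, none is given. Such a count cannot be set against the background of its own fit.

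On rescaling, COLO 201 had 11 higher and 13 lower, RKO 8 higher and H1975 8 lower, and of genes called on either scale the signs turned for STAM (-0.11) and SNF8 (-0.029) in COLO 201, where those of 9 genes called on neither turned too (20 in RKO, 6 in H1975); 19 genes differed between COLO 201 and H1975, 15 differed between COLO 201 and RKO and 5 between H1975 and RKO. With small noncoding and mitochondrial genes removed, 8 were lower in COLO 201 and in H1975, and 8 were higher in RKO. That fit ended the calls of HGS, SNF8, CHMP4B, CHMP4C and RAB7A in COLO 201 and of RAB11A, RALA and VAMP3 in H1975. With no minimum, 0 were higher and 0 lower in RKO and 2 lower in H1975, with many more genes tested; with a pseudocount of 5, 1 was lower in RKO. MUC1 in RKO lost its limma call at a pseudocount of 5 (-0.83), with no minimum (-1.88), on rescaling (-1.77), with small noncoding and mitochondrial genes removed (-1.79) and with a replicate block (-1.88).

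Without RKO vehicle column 1 and rescaled, 22 were higher and 7 lower, where 28.9% and 29.9% of all genes were. Of genes called on either scale, these turned to higher: STAM2 (0.20), VPS37A (0.31), VPS4A (0.16), VPS4B (0.23), SDCBP (0.33), SDC4 (0.63), RAB5A (0.24), RAB2B (0.25), RALA (0.26), RALB (0.12), VAMP3 (0.17) and SNAP23 (0.15).

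With 1 column left out, the higher and lower counts were 1 to 1 and 0 to 5 in RKO, 16 to 19 and 4 to 6 in COLO 201, and 7 to 16 and 2 to 5 in H1975. The fits of further lists without RKO vehicle column 1 were added after seeing the data. In RKO the lower count was 0 without doxycycline column 1, 1 without doxycycline column 3 or vehicle column 2 and 5 without doxycycline column 2. In H1975, 2 were lower without doxycycline column 1 or vehicle column 3. The differing genes were 10 to 15 for COLO 201 against H1975, 6 to 17 for COLO 201 against RKO and 0 to 15 for H1975 against RKO. The count was highest, at 17 and 15, without RKO doxycycline column 2, and H1975 against RKO gave 0 without H1975 vehicle column 1, 1 without H1975 or RKO doxycycline column 3 and 5 without RKO vehicle column 3. MUC1 in RKO had changes of -2.40 to -1.86, its call lost without doxycycline column 1 or 2; this leaves out vehicle column 1, without which MUC1 averaged under 1 TPM and was not tested, its difference of log2 means being -0.90.

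A replicate block gave 2 higher and 5 lower in RKO, 20 and 5 in COLO 201, 10 and 3 in H1975, and 11, 17 and 7 differing genes for COLO 201 against H1975, COLO 201 against RKO and H1975 against RKO. Column numbers did not pair the columns by their deviations (r of -0.42 to 0.29 for same-numbered columns), and 4, 3 and 1 of 6 columns in RKO, COLO 201 and H1975 correlated best with their own number.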
